A study of Mus musculus with 6 samples.

Results

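The 10 genes described here belong to the tumour necrosis factor (TNF) superfamily and were measured in CD4+CD8+ double-positive thymocytes, the stage at which a developing T cell is tested on its newly made receptor. They are the ligands Tnfsf10, Ltb and Tnfsf8 and the receptors Tnfrsf10b, Fas, Cd27, Tnfrsf13b, Tnfrsf1a, Tnfrsf1b and Tnfrsf4. They were taken by symbol from the authors' table of 37867 gene models, of which they are 10, and each symbol had 1 model. They were chosen by their FPKM values, ratios and q in this comparison, so the values below are descriptions, and no count among these genes supports a statement about the family. One group came from mice in which the microRNA genes mir181a1 and mir181b1 were knocked out, the other from wild type mice, both of strain C57bl6, with 3 sorted populations each and a stated sort purity above 95%. The labels name no other allele and no treatment, give no age and do not say whether populations came from separate animals, so the deposited p-values may measure only technical spread. RNA was sequenced after TruSeq library preparation, and each gene model has 1 value per genotype, in FPKM, fragments per length of transcript and depth of library. FPKM divides by length, so levels of different genes can be set side by side, but only approximately. Whether the values were corrected for base composition was not given in the sources used here. Ratios of knockout over wild type followed the base composition of transcripts, as given below. Shifts between genotypes in shares and in levels of 1 gene relative to another carry that limit. Where values are given as a pair, the knockout comes first unless the sentence says otherwise.

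TNF superfamily ligands are mostly trimeric membrane proteins that bind and cluster receptors on the same or a neighbouring cell. Receptors with a cytoplasmic death domain, such as those encoded by Fas, Tnfrsf10b and Tnfrsf1a, can recruit Fadd or Tradd and activate caspase 8, whereas receptors without one, such as those encoded by Cd27, Tnfrsf4, Tnfrsf1b and Tnfrsf13b, bind TRAF adaptors and activate NF-kB and MAP kinases. In the thymus the family is known for costimulation, for the organisation of the medulla by lymphotoxin and related ligands, and for death of thymocytes.

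All 8 marker genes of the double-positive stage were tested and none passed a q of 0.05, 1 being lower at an unadjusted p under 0.05, with Cd8b1 at 1241 FPKM in knockout cells and 1683 FPKM in wild-type cells, and Cd1d1, the lowest, at 17.1 against 24.2 FPKM. By the authors' deposited table, q was below 0.05 for 17.1% of the 13834 tested models: 15.3% were lower in the knockout and 1.79% higher, and the median log2 ratio of knockout over wild type was -0.17. Ratios followed the GC content of the transcripts (Spearman's rho -0.764 across 8994 coding genes, a description across genes that share the same libraries), so the ratios of the 9 tested genes among the 10 are also given after a smooth trend in GC content and length of transcripts was taken out. Values of single populations were not used here. The error given is the standard error implied by the deposited statistic, and neither the depth nor the spread between populations is known.

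Among the 10 genes the order of levels ran from Cd27, at 375 FPKM in wild-type cells, to Tnfsf8, at 0.197 FPKM. Cd27, Ltb, Fas and Tnfrsf1a held the first 4 places in both genotypes. Tnfsf10 was number 8 in the wild type and number 5 in the knockout, while Tnfrsf13b was number 5 in the wild type and number 8 in the knockout. Whether neighbours in this order differ beyond the spread between populations cannot be said from 1 value per genotype. Of the 9 tested genes, 1 was higher and 2 were lower in the knockout at a q under 0.05, beside 1.79% and 15.3% of all tested models, and 6 did not pass. At q below 0.01 the counts were 1 higher and 1 lower, beside 0.745% and 10.1% of models, and at q below 0.1 they were 1 and 2, beside 2.96% and 18.7%. With the median ratio of all models subtracted they were 1 and 1, beside 3.6% and 10.8%. All 9 tested genes had a mean of at least 1 FPKM, and among such models 2.03% were higher and 17.8% lower. The median log2 ratio of the 9 genes was -0.34. Fewer cells that make a transcript and less of it per cell cannot be told apart in such bulk samples.

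**Figure D1:**
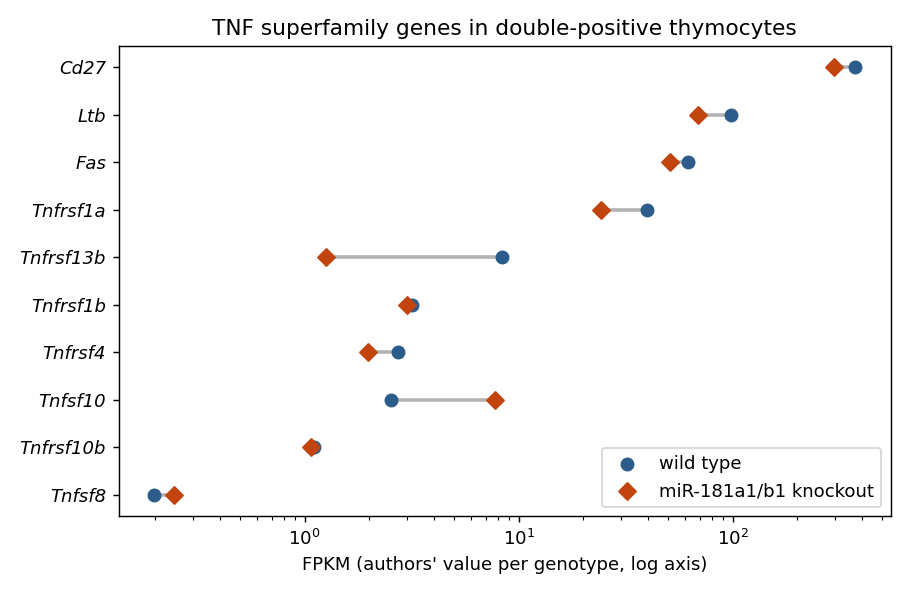
FPKM of the 10 genes on a log axis, with 1 circle for the wild type and 1 diamond for the knockout, as the authors' value per genotype with no error drawn. The widest gaps are those of Tnfrsf13b (8.34 in the wild type, 1.25 in the knockout) and Tnfsf10 (2.52 and 7.76), in opposite directions.

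Tnfsf10 encodes TRAIL, a ligand that can trigger death through its receptor. It stood at 7.76 FPKM in knockout cells and 2.52 FPKM in wild-type cells, a 3.07-fold difference with a log2 ratio of 1.62 (implied SE 0.28, and the authors' deposited table gives q = 3.55e-07). Its level exceeded that of 28.4% of tested models in the wild type and of 53.03% in the knockout. Tnfsf10 made up 2.30% of the summed FPKM of all TNF superfamily ligands in the wild type and 9.30% in the knockout. The model runs from 27215998 to 27241154 on chromosome 3 (mm9). With 42.8% GC it lies where most genes had ratios slightly above 0: the median was 0.20 among the 722 coding genes within 1 percentage point of its GC content, and 99.2% of them had a lower ratio. With the trend in GC and length taken out its log2 value was 1.38.

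The death receptor for this ligand in the mouse, encoded by Tnfrsf10b, stood at 1.07 FPKM in knockout cells and 1.11 FPKM in wild-type cells. The 2 values lay close together, with a log2 ratio of -0.05 and a 95% interval from -0.82 to 0.72 (the authors' deposited table gives q = 0.977). The level of Tnfsf10 was thus 2.28 times that of Tnfrsf10b in the wild type and 7.25 times in the knockout. The Tnfrsf10b model spans 70167335 to 70184218 on chromosome 14 (mm9). Tnfrsf22 and Tnfrsf23, which encode decoy receptors that bind TRAIL in mice, lie over the same span of chromosome 7, and reads of these close copies may have been split. Tnfrsf22 stood at 0.705 against 0.519 FPKM (the authors' deposited table gives q = 0.873), and Tnfrsf23, at 0.106 against 0.102 FPKM, was not tested. Tnfrsf11b, the gene of a soluble decoy, was listed at 0 in both genotypes.

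Since the genes mir181a1 and mir181b1 were knocked out, the 3′ UTRs of the TNF superfamily were searched for matches to the miR-181 seed. Whether other genes still supplied miR-181 in these cells was not tested. The seed, bases 2 to 8, pairs with target messages. The mature sequences, from RefSeq (GRCm38.p6, chromosome 1, plus strand, 137966468 to 137966490 and 137966650 to 137966673), have the same seed, here in capitals.
mmu-miR-181a-5p: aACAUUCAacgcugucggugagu
mmu-miR-181b-5p: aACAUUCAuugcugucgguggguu
Searched on the transcript strand were TGAATGT, the match to the whole seed, TGAATGTA, the same with an A after it (an 8mer), and GAATGTA, the match to bases 2 to 7 with that A (a 7mer-A1), each site being counted once as its longest form. In 1 reference transcript per gene, 21.6% of 8343 tested coding genes held at least 1 such site.

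Tnfsf10 held 3 sites in a 3′ UTR of 3998 bases, 2 of them 8mers. Of the 827 tested genes with a 3′ UTR within 25% of that length, 50.7% held a site. At least as many sites were held by 4.84% of them, and at least as many 8mers by 1.93%. Those genes were matched for the length of the UTR only. Base composition was not matched, although the searched letters are poor in G and C and Tnfsf10 has a low GC content. The sites, in capitals and read from the GRCm38 genome with GENCODE annotation, are shown because this is the member with the most of them and the 1 that was higher in the knockout.
Tnfsf10 7mer-A1, GRCm38 chr3:27336260-27336288, plus strand: ccttgcccaaaGAATGTAtgaaatctcca
Tnfsf10 first 8mer, GRCm38 chr3:27337188-27337217, plus strand: aaaagcttattTGAATGTAagagtatggct
Tnfsf10 second 8mer, GRCm38 chr3:27337395-27337424, plus strand: catgaaccaaaTGAATGTAttaattaataa
They begin at bases 604, 1532 and 1739 of the UTR. Whether the transcripts in these cells carry the long reference UTR was not tested, and a match is not evidence of binding.

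Ltb held 2 7mer-A1 sites in a 3′ UTR of only 156 bases, a length class in which 1.56% of 449 tested genes held any site.
Ltb first 7mer-A1, GRCm38 chr17:35196252-35196280, plus strand: gggggagaacgGAATGTAggacacgaatt
Ltb second 7mer-A1, GRCm38 chr17:35196281-35196302, plus strand: ttgaaaataaaGAATGTAaact
Tnfsf8 held 2 sites in 2799 bases and Tnfrsf10b held 1 in 1845 bases. The other 6 members, Fas, Cd27, Tnfrsf13b, Tnfrsf1a, Tnfrsf1b and Tnfrsf4, held none in their reference transcripts. Over the whole superfamily of 46 genes, 21 of them not tested, 14 held a site and 4 an 8mer. Of all tested coding genes 21.6% held a site and 5.55% an 8mer, shares that are not matched for the length or base composition of the UTR. The other 8mers were in Tnf (1.27 FPKM in the knockout against 1.19 FPKM), in Tnfrsf21, a death-domain receptor (1.01 against 1.04 FPKM), and in Tnfrsf11b, listed at 0 in both.

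Ltb encodes lymphotoxin beta, which anchors lymphotoxin alpha at the membrane and signals through the receptor encoded by Ltbr. It was the most abundant ligand, at 68.6 FPKM in knockout cells and 98.3 FPKM in wild-type cells, 82.2% and 89.8% of the summed FPKM of all ligands. The log2 ratio was -0.52 (implied SE 0.28), and the q of 0.204 in the authors' deposited table did not pass. The transcript, on chromosome 17 from 35327573 to 35333415 (mm9), had the highest GC content of the 10, at 62.6%. Of the 97 genes within 1 point of it, 93.8% had a lower ratio, and their median log2 ratio was -1.57. Removal of the GC and length trend therefore turned the value of Ltb to 1.24, with a Benjamini-Hochberg adjusted p of 0.00150 over the genes of the statsmodels fit. That p uses the implied standard error alone. It leaves out the error of the fitted trend, which few genes inform at this GC content, and the scatter of genes about it. The direction of Ltb thus depends on whether that trend is kept.

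Next to Ltb on chromosome 17, within 2920 and 6692 bases, lie the other genes of the TNF and lymphotoxin cluster, both near 1 FPKM. Tnf, the founding ligand, stood at 1.27 against 1.19 FPKM (the authors' deposited table gives q = 0.945). Lta, lymphotoxin alpha, stood at 1.44 against 1.77 FPKM (the authors' deposited table gives q = 0.794). The level of Ltb was 47.6 times that of Lta in the knockout and 55.5 times in the wild type. Ltbr, the receptor for the lymphotoxin heterotrimer, was at 0.0236 and 0.109 FPKM and was not tested. A long noncoding model named as antisense to Ltb over the same span was at 0.111 FPKM in knockout cells and 0 in the wild type, and reads of such a pair cannot be told apart with a kit that does not mark strand.

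Tnfsf8 encodes the CD30 ligand. It was the lowest of the 10, at 0.244 FPKM in knockout cells and 0.197 FPKM in wild-type cells, and the authors' status marked it as not tested. Only 0.969% of tested models had a lower level in the wild type. Its receptor gene, Tnfrsf8, stood at 2.01 against 2.68 FPKM (the authors' deposited table gives q = 0.534). The ligand gene stood at 0.122 times the level of Tnfrsf8 in the knockout and 0.0736 times in the wild type.

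Tnfrsf13b encodes TACI, a receptor for BAFF and APRIL known mainly from B cells. It showed the largest ratio of the 10, at 1.25 FPKM in knockout cells and 8.34 FPKM in wild-type cells. This is a 6.66-fold lower level in the knockout, with a log2 ratio of -2.74 (implied SE 0.45, and the authors' deposited table gives q = 1.64e-07). Its level exceeded 49.3% of tested models in the wild type and 21.1% in the knockout. The model spans 60940256 to 60961144 on chromosome 11 (mm9), and Usp22, the nearest tested gene at 4299 bases, stood at 24.9 against 29.6 FPKM (the authors' deposited table gives q = 0.561). At 50.5% GC the median log2 ratio of the 985 genes within 1 point was -0.24, and 0.102% of them had a lower ratio than Tnfrsf13b. The value after removal of the trend was -2.49.

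The partners of TACI were near the lower end of the table. Tnfsf13b, which encodes BAFF, was at 0.265 and 0.237 FPKM, and the model shared by Tnfsf13 (APRIL) and Tnfsf12 was at 0.0388 and 0.0769 FPKM. Of the other receptors of these ligands, Tnfrsf13c (the BAFF receptor) was at 0.0507 and 0.0975 FPKM and Tnfrsf17 (BCMA) at 0.0161 and 0.0485 FPKM, and none of these 4 models was tested. Of 8 B cell markers, 2 were tested and neither passed. Their summed level was 16.5 FPKM in knockout cells and 21.5 FPKM in wild-type cells, of which Cd79b gave 15.7 and 20.1 FPKM, while Ms4a1 stood at 0.0105 and 0.0529 and Pax5 at 0.0254 and 0.0214 FPKM. None of the 8 was listed at 0 in either genotype. The part of B cells in the TACI value was not tested.

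Of 10 myeloid and dendritic markers, Cd74 (1.99 against 7.89 FPKM) and Itgam (1.02 against 2.11 FPKM) were lower in the knockout, which is 2 of 6 tested beside 15.3% of all tested models. The 4 others tested did not pass, and Cd14 was listed at 0 in both. All 6 tested had a ratio below 0, with a median log2 ratio of -1.12, beside -0.17 over all tested models. After removal of the trend in GC and length the median was -0.70, and none of the 5 in the fit was called. The summed level of the 10 was 8.27 FPKM in knockout cells and 20.5 FPKM in wild-type cells, a sum in which Cd74 weighs most in the wild type. The part of such cells in the Tnfrsf13b value was not tested.

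**Figure D2:**
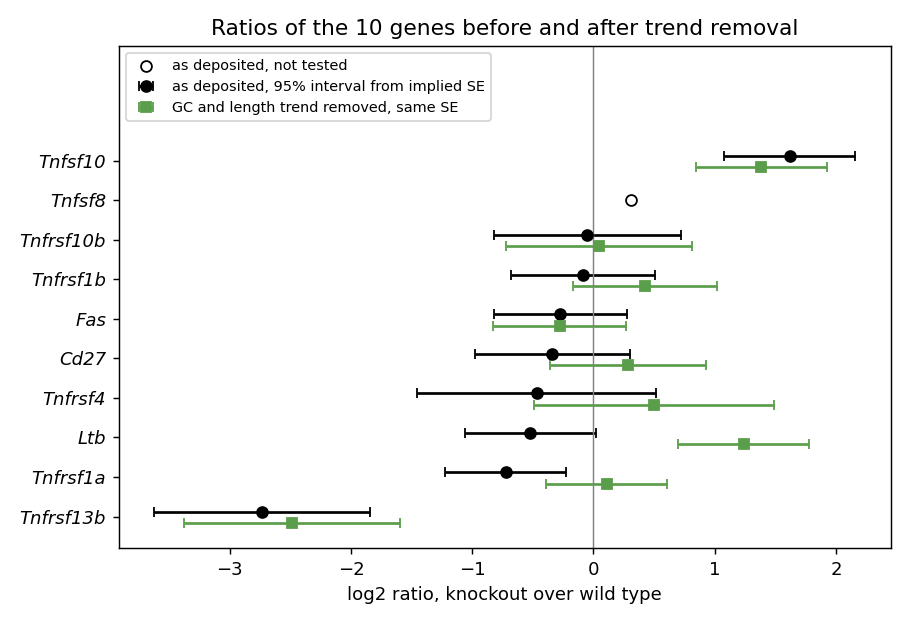
Log2 ratios of knockout over wild type for the 10 genes, as deposited (black circles) and with the trend in GC and length taken out (green squares), with 95% intervals from the implied standard error. Tnfsf10 and Tnfrsf13b lie on the same side of 0 in both, while Ltb moves from -0.52 to 1.24 and Tnfrsf1a from -0.72 to 0.11; the open circle of Tnfsf8, which was not tested, has no interval.

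The 2 receptors of TNF itself stood well apart in level. Tnfrsf1a encodes the death-domain receptor TNFR1 and stood at 24.1 FPKM in knockout cells and 39.8 FPKM in wild-type cells, a 1.65-fold lower level (log2 -0.72, implied SE 0.25, and the authors' deposited table gives q = 0.0311). Tnfrsf1b encodes TNFR2, which lacks a death domain, and stood at 3.00 against 3.19 FPKM (the authors' deposited table gives q = 0.927). The level of Tnfrsf1a was 12.5 times that of Tnfrsf1b in the wild type and 8.04 times in the knockout. Whether the ratios of these 2 receptors differ was not tested.

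The ratio of Tnfrsf1a was close to the median of transcripts of like base composition. Its transcript has 55.9% GC, and the 890 genes within 1 point had a median log2 ratio of -0.83, with 44.9% of them called lower. After subtraction of the median ratio of all models the value was -0.56 with a Benjamini-Hochberg adjusted p of 0.132, and after removal of the trend it was 0.11. The model spans 125299772 to 125312502 on chromosome 6 (mm9). The Tnfrsf1b model, on chromosome 4 from 144801124 to 144836774, is listed together with a second transcript name and overlaps a noncoding model named as antisense, which was at 0.0874 and 0.0503 FPKM. Tnfrsf8, 22104 bases away, is described above.

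Fas encodes the receptor of the Fas ligand and kills through the adaptor FADD. It stood at 51.1 FPKM in knockout cells and 61.8 FPKM in wild-type cells, above 91.6% and 91.8% of tested models. The log2 ratio was -0.27 with a 95% interval from -0.82 to 0.28 (the authors' deposited table gives q = 0.609). With 43.4% GC, Fas is a transcript for which most genes had positive ratios, with a median of 0.17 among 787 genes, and its value after removal of the trend was -0.28. The model spans 34365155 to 34402260 on chromosome 19 (mm9). Fasl, the ligand gene, was at 0.103 and 0.0972 FPKM and was not tested, and the level of Fas was 497 times that of Fasl in the knockout and 636 times in the wild type.

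Cd27 encodes a costimulatory receptor that signals through TRAF2 and TRAF5. It was the most abundant gene of the superfamily, at 296 FPKM in knockout cells and 375 FPKM in wild-type cells, above 99.6% and 99.5% of tested models, and made up 72.1% and 69.4% of the summed FPKM of all receptors. The log2 ratio was -0.34 with a 95% interval from -0.98 to 0.30 (the authors' deposited table gives q = 0.578), and the value after removal of the trend was 0.28. Cd70, which encodes the only known ligand of CD27, was listed at 0 in both genotypes. The span given for Cd27, 125165598 to 125192045 on chromosome 6 (mm9), is also that of Vamp1 (123 against 126 FPKM) and Tapbpl (20.8 against 29.7 FPKM), and how reads were divided among these 3 models was not given in the sources used here.

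Tnfrsf4 encodes OX40, a costimulatory receptor of activated and regulatory T cells. It stood at 1.97 FPKM in knockout cells and 2.72 FPKM in wild-type cells, with a log2 ratio of -0.47 and a 95% interval from -1.46 to 0.52 (the authors' deposited table gives q = 0.629). The interval was the widest of the 9 tested genes. After removal of the trend the value was 0.50. Its model, from 155387803 to 155390698 on chromosome 4 (mm9), lies 9752 bases from that of Tnfrsf18, which encodes the related receptor GITR.

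Tnfrsf18 is not among the 10 genes. It stood at 5.95 FPKM in knockout cells and 18.5 FPKM in wild-type cells (log2 -1.64, implied SE 0.39, and the authors' deposited table gives q = 0.000544). GITR and OX40 are both known from regulatory T cells. Of 5 markers of those cells, 2, Ctla4 and Ikzf2, were tested and neither passed. Both had a ratio above 0, with a median log2 ratio of 1.63 over these 2 genes alone. Ikzf2 was higher at an unadjusted p under 0.05 (the authors' deposited table gives q = 0.0856), and Ctla4 was not (q = 0.842 there). Foxp3, the defining factor, was at 0.0946 and 0.144 FPKM and was not tested. The summed level of the 5 was 21.3 FPKM in knockout cells and 11.7 FPKM in wild-type cells, mostly from the 2 tested markers. None of the 5 was listed at 0. The part of regulatory T cells in the Tnfrsf18 and Tnfrsf4 values was not tested.

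In the superfamily as a whole, 46 genes by name, every symbol was found, and 27 of the genes had a mean under 1 FPKM. Tnfsf12 and Tnfsf13 have 1 model in common, which leaves 45 models, of which 25 were tested. Of those 25, 1 was higher and 5 were lower in the knockout by the authors' deposited table at q below 0.05, beside 1.79% and 15.3% of all tested models. The share lower was near that background. Of the 16 tested genes outside the 10, 3 were lower (18.8%) and none was higher in the deposited test, where 1, Tnfrsf26, was higher at an unadjusted p under 0.05. With the median ratio of all models subtracted Tnfrsf26 passed, at a Benjamini-Hochberg adjusted p of 0.0173. The median log2 ratio of the 16 was -0.17, close to that of all tested models.

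The 3 lower genes outside the 10 were Tnfrsf18, Tnfsf14 and Tnfrsf25. Tnfsf14 encodes LIGHT, a ligand of the receptor encoded by Tnfrsf14, and stood at 0.902 against 2.73 FPKM (log2 -1.60, the authors' deposited table gives q = 0.00105). Tnfrsf25, a death-domain receptor also called DR3, stood at 0.0774 against 0.784 FPKM (log2 -3.34, implied SE 1.02, and the authors' deposited table gives q = 0.00946). All 3 transcripts have a GC content between 55.5% and 58.3%. With the trend in GC and length taken out Tnfrsf18 and Tnfsf14 did not pass, at adjusted p values of 0.661 and 0.491, and Tnfrsf25 was too low for the fit.

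Among the uncalled genes outside the 10 with a mean of at least 1 FPKM, Tnfrsf26 had the highest ratio. This receptor gene of the mouse decoy cluster stood at 11.5 FPKM in knockout cells and 7.19 FPKM in wild-type cells (log2 0.68, the authors' deposited table gives q = 0.0626). Tnfrsf14, which encodes the receptor HVEM, stood at 8.38 against 13.4 FPKM, and Relt at 1.36 against 2.40 FPKM. Tnfsf9, the ligand of the costimulatory receptor 4-1BB, stood at 1.63 against 1.56 FPKM. The others, Tnf, Lta, Tnfrsf8 and Tnfrsf21, are given above.

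**Figure D3:**
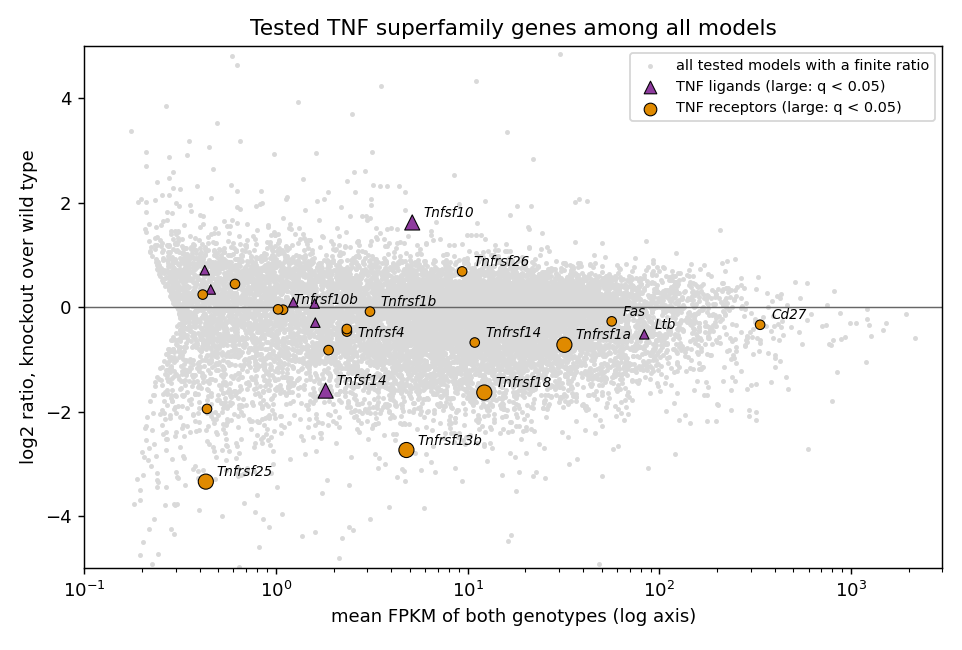
Log2 ratio of knockout over wild type against the mean FPKM of both genotypes (log axis) for the tested TNF superfamily genes, triangles for ligands and circles for receptors, over all tested models in grey; large symbols have a q under 0.05, and grey models beyond the axes are not drawn. Tnfsf10 is the 1 large symbol above 0, and Tnfrsf13b, Tnfrsf18, Tnfsf14, Tnfrsf25 and Tnfrsf1a are the 5 below.

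The base composition of the transcripts separates the 10 genes. Tnfsf8, Tnfsf10 and Fas had 42.6% to 43.4% GC, Tnfrsf10b and Tnfrsf13b 48.9% and 50.5%, Cd27, Tnfrsf1b, Tnfrsf4 and Tnfrsf1a 53.3% to 55.9%, and Ltb 62.6%. Of the 9 tested genes, 7 had a value above 0 with the trend in GC and length taken out and 2, Tnfrsf13b and Fas, below 0, whereas 8 of the 9 had a deposited ratio below 0 and 1, Tnfsf10, above it. By that measure Tnfsf10 and Ltb were called higher and Tnfrsf13b lower, beside 0.801% and 0.99% of the 8994 genes fitted. What makes ratios follow base composition was not tested.

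**Figure D4:**
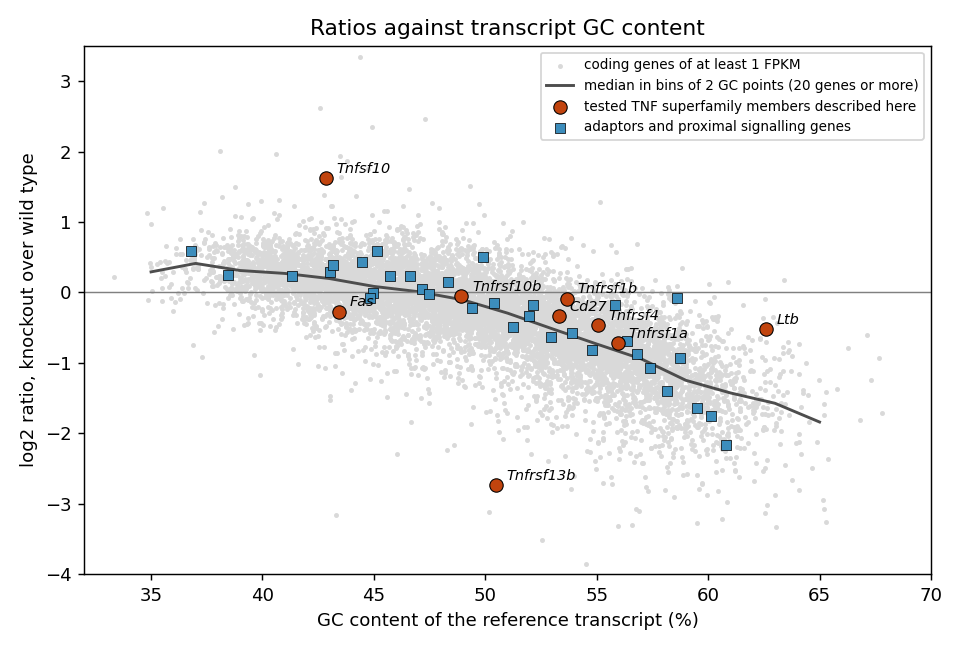
Log2 ratio of knockout over wild type against transcript GC content in percent for coding genes of at least 1 FPKM (grey, with the median per bin as a line), the 9 tested genes described here (red circles) and the adaptors and proximal signalling genes of TNF receptors (blue squares); points beyond the axes are not drawn. Most red circles and blue squares lie near the line, while Tnfsf10 (1.62) and Ltb (-0.52) lie above it and Tnfrsf13b (-2.74) below.

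Downstream of the receptors, 33 genes of adaptors, ubiquitin ligases, kinases and their inhibitors were looked up, and all were tested. At q below 0.05, by the authors' deposited table, 8 were lower in the knockout (24.2%, beside 15.3% of all tested models) and none was higher, where 2, Ripk1 and Xiap, were higher at an unadjusted p under 0.05. With the median ratio of all models subtracted these 2 passed, at Benjamini-Hochberg adjusted p values of 0.0345 and 0.0319, and 5 genes were lower. The median log2 ratio of the 33 was -0.15, near the -0.17 of all tested models. Siva1, which encodes a protein that binds CD27, stood at 4.05 against 18.1 FPKM (log2 -2.16, q = 0.000708). Rbck1, a subunit of the linear ubiquitin ligase, stood at 13.8 against 46.6 FPKM (log2 -1.76, q = 3.57e-07). Traf4 stood at 7.59 against 23.6 FPKM (log2 -1.64, q = 1.07e-06). Tab1, listed under its older symbol and a partner of the kinase TAK1, stood at 7.10 against 18.7 FPKM (log2 -1.40, q = 0.00148).

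The other 4 lower genes were Tradd, the adaptor of TNFR1, Map3k14, the kinase NIK of the alternative NF-kB pathway, Sharpin, and Traf2. The 8 genes had a GC content from 54.8% to 60.8%, with a median of 58.5%, and the 25 others had a median of 47.5%. With the trend in GC and length taken out none of the 33 was called by the adjusted p, and the values of the 8 ran from -0.43 to 0.18. Of the genes of the death pathway near the receptors, Tradd was lower in the deposited test but was not called with the trend taken out. Among the 733 coding genes within 1 point of its 57.4% GC, the median log2 ratio was -1.01 and 56.8% were called lower. Casp8, its inhibitor Cflar, Fadd and Ripk1 did not pass in the deposited test. Casp8 stood at 27.2 against 23.2 FPKM, Cflar at 29.1 against 21.6 FPKM, Fadd at 4.04 against 5.65 FPKM and Ripk1 at 12.9 against 8.56 FPKM. Of 10 execution genes, all tested, 1 was lower, beside 15.3% of all tested models, and none was higher in the deposited test, which also had none higher at an unadjusted p under 0.05. Each q in this and the preceding paragraph is from the authors' deposited table.

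**Figure D5:**
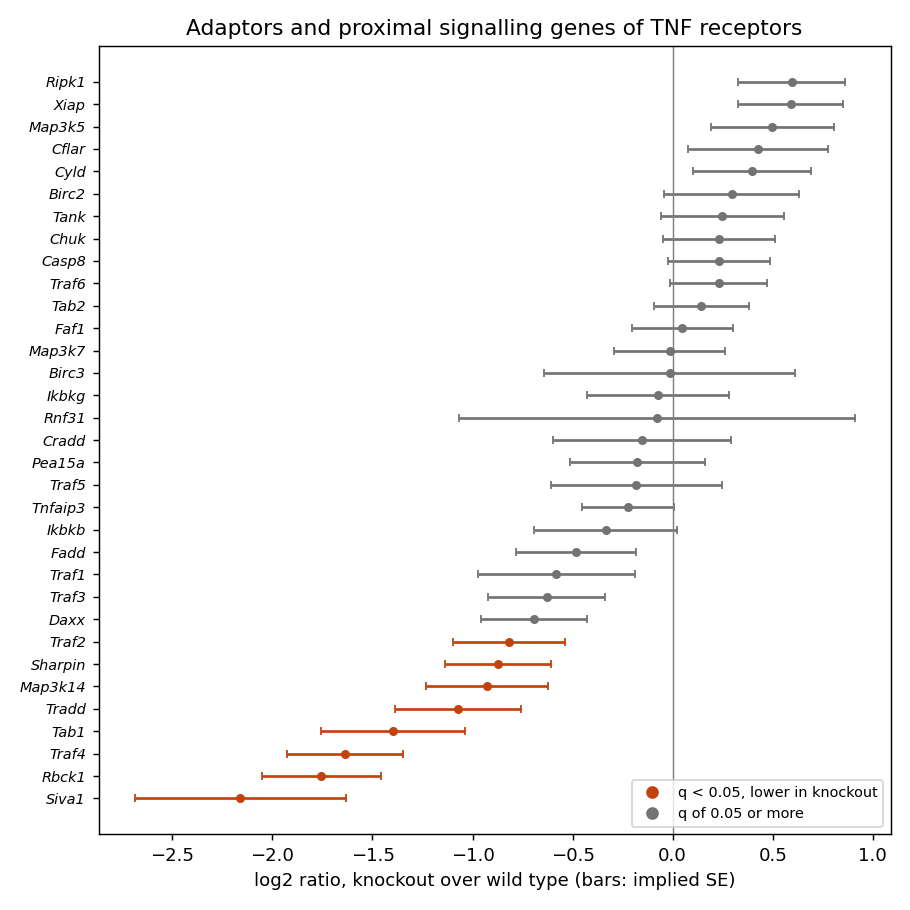
Log2 ratios of knockout over wild type for 33 adaptors and proximal signalling genes of TNF receptors, sorted, with the implied standard error as bars; red marks those with q below 0.05 as the authors' deposited table gives it. The 8 red genes run from -2.16 (Siva1) to -0.82 (Traf2), and the 25 grey ones from -0.69 to 0.60.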

How the data were processed

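RNA of 3 knockout and 3 wild type populations was sequenced. Reads were aligned to mm9 with TopHat2, per the submitters' processing notes; what counted and tested them, and with which gene annotation, was not given in the sources used here. Per gene model, the deposited table holds 1 FPKM value per genotype made by the authors, named as FPKM here from the layout of the table. It also holds the authors' p-value and q-value, a test statistic, which is a score without a fixed range, and a deposited log2 ratio of wild type over knockout. Ratios here were recomputed from FPKM as knockout over wild type. The standard error is the absolute log2 ratio divided by the absolute statistic, and intervals are 95%. The depth is unknown, and no value per population was used.

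GC content, length and 3′ UTRs came from 1 reference transcript per gene (GENCODE M21, GRCm38), used for composition and seed matches and never for mm9 positions. Transcripts longer than 1.2 times the span of the model were left out. The trend was a robust Huber fit of log2 ratios with cubic splines of 5 pieces in GC content and log2 length, over 8994 genes averaging at least 1 FPKM (statsmodels 0.14.6, patsy 1.0.2, Python 3.11.15), tested on simulated data. Its p-values use the implied standard error and Benjamini-Hochberg adjustment, and leave out the error of the fitted trend and the scatter of genes about it.

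The members and lists were chosen with earlier results of these data known. Named were the 10 genes, every other called gene of the superfamily, those uncalled but averaging 1 FPKM or more, and up to 4 called genes per direction and list. The low partners of the 10 genes, Usp22, Casp8, Cflar, Fadd, Ripk1, Xiap and Rsad2, and adaptors called beyond the first 4 were named after their values were seen. Of 186 listed genes, 8 were matched by an older symbol and 3 were not matched; values of some listed genes are not reported here.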

Additional observations from a re-analysis of the deposited data

How the results depend on the processing

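No paired analysis was possible because the table gives 1 pooled value per genotype; for the same reason no population was left out. The largest mean of an untested model was 0.314 FPKM, and the median implied standard error of 0.35 on the log2 scale limits what could be called. Subtracting the median of all models turned Tnfrsf10b to 0.12 and Tnfrsf1b to 0.080. Removing the GC and length trend turned Tnfrsf10b to 0.048, Cd27 to 0.28, Ltb to 1.24, Tnfrsf1a to 0.11, Tnfrsf1b to 0.42 and Tnfrsf4 to 0.50; the cause was not tested. A pseudocount of 1 FPKM moved Tnfsf10 to 1.31 and Tnfrsf13b to -2.05, and a pseudocount of 0.1 or summed models moved none of the 9 tested genes by more than its error.

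Tested were 9 of the 10 genes, 25 superfamily models, 33 adaptors, 10 execution genes, 13 p53 targets and 10 interferon-stimulated genes. Not every count is given. With the trend removed, 2 of the 10 passed as higher and 1 as lower, beside 0.801% and 0.99% of all genes fitted. The superfamily then had 2 higher and 1 lower among 19 genes in the fit. In the adaptor, execution, p53 and interferon lists 0 genes were then called lower, and 0 p53 targets higher. After subtraction of the median, 3.6% of all models were higher and 10.8% lower. Lower then were 1 of the 10 genes, 4 superfamily genes and 5 adaptors. Higher were 2 superfamily genes, 2 adaptors, 2 p53 targets and 1 interferon-stimulated gene. At a q under 0.01, 1 of the 10 genes was lower and 0 p53 targets were higher, beside 10.1% of all tested models lower and 0.745% higher. At a q under 0.1, 2 superfamily genes, 2 p53 targets and 1 interferon-stimulated gene were higher, and 2 execution genes were lower. Of all tested models 2.96% were then higher and 18.7% lower.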

Other observations

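Fas and Tnfrsf10b are known targets of p53, and Tnfsf10 of interferon, so other genes of both programmes were looked up. Of 14 p53 targets, 13 were tested, 1 was higher and 2 were lower by the authors' deposited table at q below 0.05, beside 1.79% and 15.3% of all tested models, so the share lower was at the background. Their median log2 ratio was -0.14, beside -0.17 over all tested models. Ccng1, which encodes cyclin G1, stood at 43.0 FPKM in knockout cells and 26.3 FPKM in wild-type cells (the authors' deposited table gives q = 0.0178). The lower genes were Bax, at 11.2 against 30.4 FPKM, and Bbc3, at 1.17 against 3.92 FPKM. With the trend in GC and length taken out none of the 11 genes in the fit was called.

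Of 14 interferon-stimulated genes, 13 were matched and 10 tested. By the authors' deposited table, 1 was lower and none was higher at q below 0.05, beside 15.3% and 1.79% of all tested models, with 1 higher at an unadjusted p under 0.05. The lower gene was Bst2, which encodes tetherin, at 6.81 against 16.8 FPKM (the authors' deposited table gives q = 0.00137). Of the 10 ratios 7 were above 0, and their median was 0.35, while over all tested models 59.6% of ratios were below 0 and the median was -0.17. Rsad2, which encodes viperin, stood at 1.09 against 0.563 FPKM (the authors' deposited table gives q = 0.0733). The summed level of the 13 matched genes was 73.0 FPKM in knockout cells and 73.2 FPKM in wild-type cells. With the trend in GC and length taken out, the median of the 10 was 0.56 and none of the 7 genes in the fit was called.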
